A study of Rattus norvegicus with 12 samples.

Results

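Didymin arm G comprised liver samples of Sprague Dawley rats that received a high-fat diet to induce non-alcoholic fatty liver disease and were treated with didymin, a flavonoid glycoside of citrus fruit. Its 3 libraries, headed G.1, G.3 and G.4, were chosen by those column names and are 3 of the 12 in the series. The other groups, with 3 libraries each, were a second didymin arm on the same diet (arm D, headed D.1, D.4 and D.7), a high-fat model without didymin (headed M.5, M.6 and M2.1) and normal rats given saline (headed N.1, N.2 and N.3). The titles of the normal samples read wt, and those of the other groups carry no such label. The design text gives 8 weeks of high-fat diet for the model. No label pairs the letters G and D with the low or the high dose, so arm G is given here without a dose. The sources used here do not give sex, age or the length of didymin treatment. Arm G and normal livers differed in diet and in didymin at once, so that in this comparison the effects of diet and drug cannot be told apart. The comparison of arm G with the model holds the diet constant.

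Total RNA of whole liver was sequenced, and the deposited read counts summed to 14879132, 12469914 and 14347456 in G.1, G.3 and G.4, against 14998661, 15205176 and 13846295 in N.1, N.2 and N.3. Levels are given as CPM (read counts scaled to a common library size), and differences as log2 fold changes of arm G over the other group with their standard error. The labels do not say whether a library is 1 animal or what the numbers in its heading count, so a p-value here speaks only to the spread between these samples, which may be technical. Library G.3 stood apart: mitochondrially coded transcripts took 61.0% of its counts, against 6.07% in G.1 and 7.88% in G.4, and 4.63%, 3.85% and 11.2% in N.1, N.2 and N.3. The means were 25 ± 31.2% in arm G and 6.54 ± 4.01% in normal livers (SD, n = 3 each; exact two-sided permutation test p = 0.5, where the smallest p for 3 against 3 is 0.1). A list of 20 hepatocyte markers, among them the defining genes Alb, Ttr, Apoa1, Hnf4a and Cps1, was present in every library. It took 21.2%, 9.86% and 21.2% of the nuclear-coded counts in G.1, G.3 and G.4, against 24.1%, 21.0% and 24.1% in N.1, N.2 and N.3. Among the other groups the model library M.6 stood apart in the same way, with 44.1% mitochondrial counts. The main results below are therefore also given without G.3 and, against the model, without M.6. In bulk tissue, fewer cells of a type and less RNA per cell cannot be told apart.

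**Figure D1:**
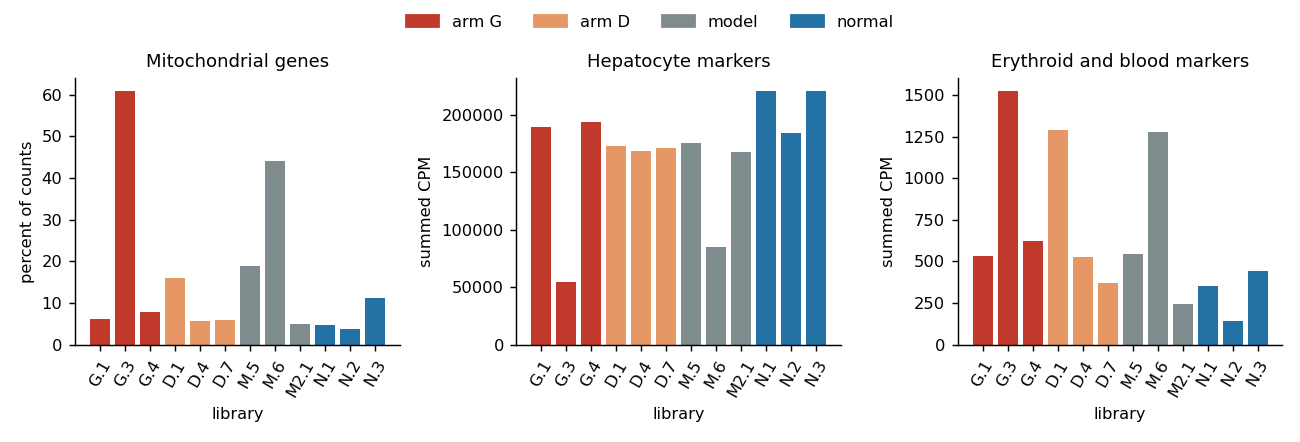
Mitochondrial share of counts (percent, left), summed hepatocyte markers (CPM, middle) and summed erythroid and blood markers (CPM, right), 1 bar for each of the 12 libraries, in the order arm G, arm D, model and normal. G.3 has the highest mitochondrial share, 61.0%, the lowest hepatocyte sum and the highest blood sum, 1527 CPM.

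Hepatocytes make cholesterol from acetyl-CoA through the mevalonate pathway, and the genes of its enzymes are transcribed together under SREBP-2, a membrane-bound factor that is cut and released when sterol is scarce. At these promoters SREBP-2 works beside NF-Y, which binds the CCAAT box. Growth hormone reaches the hepatocyte nucleus through JAK2 and STAT5. STAT5 binds sites of the form TTCNNNGAA and switches on Cish and Socs2, feedback inhibitors of the receptor, as well as Igf1, and the timing of hormone pulses sets the sex-biased liver genes of rodents. In mice, BCL6 is a repressor that occupies part of the STAT5 sites.

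Promoters of 3 cholesterol enzymes and of Cish are shown because the results turn on these genes. Each runs from 250 bases before to 50 bases after the RefSeq start on the rat build GRCr8, 5′ to 3′ along the gene, with matches in capitals. Capitals mark CCAAT on either strand (ATTGG on the other) in Idi1 (chr17:66547475-66547774, minus strand), Fdps (chr2:176804767-176805066, minus strand) and Msmo1 (chr16:29746863-29747162, plus strand). In Cish (chr8:116850719-116851018, plus strand) they mark TTCNNNGAA, which reads the same on both strands and was searched for after the values of Cish were seen.
Idi1: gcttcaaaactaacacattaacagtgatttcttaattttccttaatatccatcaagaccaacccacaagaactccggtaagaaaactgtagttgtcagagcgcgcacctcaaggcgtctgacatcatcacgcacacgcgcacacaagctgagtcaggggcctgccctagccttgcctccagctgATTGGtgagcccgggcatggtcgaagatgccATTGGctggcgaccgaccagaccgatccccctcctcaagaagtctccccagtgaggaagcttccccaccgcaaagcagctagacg
Fdps: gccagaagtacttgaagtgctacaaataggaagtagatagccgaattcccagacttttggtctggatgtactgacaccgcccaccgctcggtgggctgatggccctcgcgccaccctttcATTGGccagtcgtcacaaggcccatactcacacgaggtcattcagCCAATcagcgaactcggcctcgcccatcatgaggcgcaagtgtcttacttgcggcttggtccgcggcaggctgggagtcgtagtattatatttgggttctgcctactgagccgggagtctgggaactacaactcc
Msmo1: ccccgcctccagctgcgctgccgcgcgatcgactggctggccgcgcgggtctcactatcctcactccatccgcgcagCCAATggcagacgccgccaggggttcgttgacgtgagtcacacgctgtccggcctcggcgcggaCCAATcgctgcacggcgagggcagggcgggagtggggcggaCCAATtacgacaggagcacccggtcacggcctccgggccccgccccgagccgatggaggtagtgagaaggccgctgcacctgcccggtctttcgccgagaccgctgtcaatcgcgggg
Cish: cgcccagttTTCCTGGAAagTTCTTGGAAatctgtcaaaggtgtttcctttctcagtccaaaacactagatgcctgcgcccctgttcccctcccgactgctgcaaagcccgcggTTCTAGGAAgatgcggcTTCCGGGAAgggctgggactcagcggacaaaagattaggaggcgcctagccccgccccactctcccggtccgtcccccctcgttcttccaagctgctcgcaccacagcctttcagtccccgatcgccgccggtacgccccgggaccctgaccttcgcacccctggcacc

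The table of promoters matched 17 of the 22 cholesterol synthesis genes. CCAAT lay in 14 of these 17 windows (82.4%), against 37.5% of all 33469 rat promoters of the same length. It lay in Idi1 and Fdps at 2 places each and in Msmo1 at 3. The sterol response element TCACNCCAC was in 0 of the 17 windows, against 1.12% of all promoters. The Cish window held TTCNNNGAA at 4 places that did not overlap, and 2 of 14 promoters of the growth hormone list held it at all, against 8.87% of all promoters. These are matches of letters and no measurement of binding.

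Of 41 gene lists, cholesterol synthesis had the lowest median log2 fold change of arm G over normal (-1.40), followed by fatty acid synthesis (-0.83) and the growth hormone response (-0.57). The highest medians were those of neutrophil (1.62), blood (1.497), B and plasma cell (1.49) and T and NK cell markers (1.096), followed by immediate early (0.83) and chemokine genes (0.77). The same medians over normal in arm D and the model were -0.83 and -0.38 for fatty acid synthesis. For the growth hormone response they were -0.27 and -0.37. They were 0.96 and 1.15 for neutrophil markers and 1.19 and 1.14 for blood markers. B and plasma cell markers had 1.02 and 0.51, and T and NK cell markers 1.13 and 0.59. Immediate early genes had 0.62 and -0.17, and chemokine genes 1.05 and 0.32. No gene passed the main test. Across the 12355 genes tested, the edgeR quasi-likelihood test called 0 genes at a Benjamini-Hochberg adjusted p of 0.05 in arm G against normal (0% of those tested), and the smallest adjusted p was 0.253, for Tmem150c. At an unadjusted p of 0.05, edgeR gave 546 genes higher in arm G (4.42%) and 268 lower (2.17%), 814 in all. In 681 genes (5.51%) every arm G library was above every normal library, and in 624 (5.05%) every one was below. DESeq2 called 26 of 12341 genes higher (0.211%) and 25 lower (0.203%) at an adjusted p of 0.05, and limma-voom with quality weights called 47 in all, of which 29 were also among the 51 of DESeq2. Limma-voom without weights called 0. The counts below are read against these shares, and the median log2 fold change over all tested genes was 0.01. Counts against normal without 1 library are read against the shares at an unadjusted p of 0.05 in that setting. Higher and lower in arm G, these were 8.36% and 2.79% without G.1, 1.73% and 1.52% without G.3. They were 7.41% and 2.27% without G.4, and 1.81% and 1.15% without N.1. Without N.2 they were 1.85% and 1.17%, and without N.3 4.27% and 3.1%. Genes given with a log2 fold change from all libraries met an unadjusted edgeR p of 0.05 unless the text says otherwise. Of 100 genes examined that met it, 68 still did without G.3, and 49 did whichever of the 6 arm G and normal libraries was left out. Where a gene is said to have missed it without certain libraries, each of these was left out alone. The edgeR adjusted p of a gene is printed where it was below 0.7, and an adjusted p is that of edgeR unless DESeq2 is named.

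**Figure D2:**
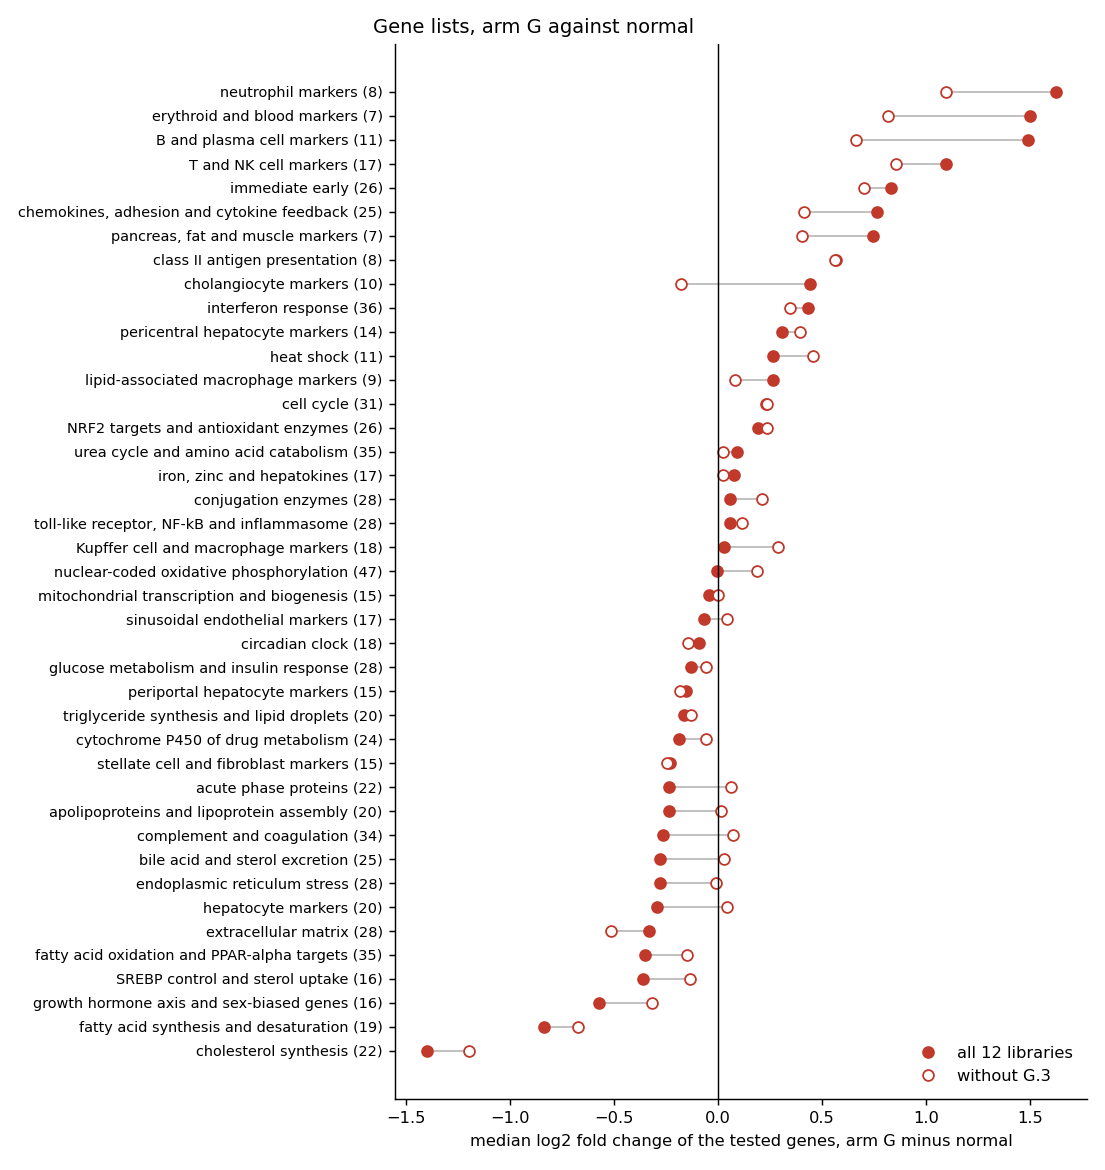
Median log2 fold change of arm G over normal for each gene list (the number of tested genes stands beside each name), with all 3 arm G libraries and without G.3. Cholesterol synthesis lies furthest below 0 in both settings, at -1.40 and -1.19.

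Cholesterol synthesis was the list that stood lowest in arm G. All 22 of its genes were lower by sign, and their median log2 fold change was -1.40. Of the 22, 13 were lower at an unadjusted p of 0.05 where 2.17% of all genes were, 16 had every arm G library below every normal one where 5.05% did, and 9 were called lower by DESeq2, against 25 in the whole table. The mean level of the list was 4.50, 3.44 and 4.49 log2 CPM in G.1, G.3 and G.4, against 6.06, 5.72 and 5.21 log2 CPM in N.1, N.2 and N.3, so G.3 was lowest and N.3 nearest to arm G. Without G.3 the median was -1.19, 14 genes were lower at an unadjusted p of 0.05 (1.52% of all genes) and 18 did not overlap (10.3%). Leaving out any other single library of the 2 groups left 12 to 15 genes lower and a median of -1.59 to -1.20.

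The pathway starts with acetyl-CoA thiolase and HMG-CoA synthase. Acat2, the cytosolic thiolase, was at 1.66, 4.20 and 1.73 CPM in G.1, G.3 and G.4, against 7.56, 4.03 and 2.31 CPM in N.1, N.2 and N.3, and the groups overlapped (log2 fold change -0.89 ± 0.56, unadjusted p above 0.05). Hmgcs1, which makes HMG-CoA, was at 149, 105 and 297 CPM in arm G, against 786, 549 and 496 CPM in normal livers, a log2 fold change of -1.73 ± 0.43 (adjusted p = 0.526). Every arm G library was below every normal one for Hmgcs1.

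The kinases that phosphorylate mevalonate differed less. Mvk had a log2 fold change of -0.58 ± 0.35 (unadjusted p above 0.05) and Pmvk one of -0.37 ± 0.27 (unadjusted p above 0.05), with overlapping groups in both. Mvd, the decarboxylase that follows, was at 2.68, 3.86 and 3.395 CPM in arm G, against 7.30, 7.51 and 5.07 CPM in normal livers (-1.005 ± 0.35). Idi1, the isomerase that provides the 2 activated isoprene units, was at 8.81, 6.01 and 9.63 CPM in G.1, G.3 and G.4, against 68.2, 47.4 and 19.2 CPM in N.1, N.2 and N.3. Its log2 fold change was -2.46 ± 0.46 (adjusted p = 0.344; DESeq2 adjusted p = 0.000344), and -2.27 ± 0.53 without G.3. Fdps, which joins isoprene units to farnesyl diphosphate, was at 65.3, 37.4 and 70.5 CPM in arm G, against 237, 145 and 118 CPM in normal livers (-1.53 ± 0.32, adjusted p = 0.438). The groups did not overlap in Mvd, Idi1 or Fdps, and Mvd missed an unadjusted p of 0.05 without G.1 and without N.2. Ggps1, the branch enzyme that makes geranylgeranyl diphosphate for proteins rather than for sterol, was at 7.22, 14.7 and 5.96 CPM in arm G, against 8.64, 9.25 and 11.3 CPM in normal livers. That is a log2 fold change of -0.07 ± 0.35 (unadjusted p above 0.05), with G.3 above and both other arm G libraries below all normal libraries.

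The step from squalene to its epoxide held the largest fold change of the pathway. Fdft1, squalene synthase, was at 67.1, 31.0 and 54.5 CPM in arm G, against 148, 106 and 129.9 CPM in normal livers (-1.33 ± 0.32, adjusted p = 0.475). Sqle, the monooxygenase that makes the epoxide, was at 4.02, 1.81 and 7.21 CPM in G.1, G.3 and G.4, against 61.0, 31.6 and 18.9 CPM in N.1, N.2 and N.3. It had the largest difference of the 22 genes, -3.08 ± 0.57 on the log2 scale (adjusted p = 0.340; DESeq2 adjusted p = 7.08e-05), and the highest arm G library was still below the lowest normal one. Without G.3 its log2 fold change was -2.71 ± 0.57. Lss, which closes the sterol rings, was at 6.07, 5.44 and 4.30 CPM in arm G, against 28.9, 18.9 and 5.59 CPM in normal livers (-1.76 ± 0.54), and here N.3 lay among the arm G libraries.

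Among the enzymes that turn lanosterol into cholesterol, Cyp51, Msmo1 and Tm7sf2 differed most. Cyp51, the lanosterol demethylase, was at 61.0, 5.44 and 64.1 CPM in arm G, against 358, 218 and 130 CPM in normal livers, with G.3 far below the others (-2.43 ± 0.72; -1.90 ± 0.51 without G.3). Tm7sf2, a sterol C14 reductase, was at 37.0, 12.5 and 22.7 CPM in arm G, against 106, 154 and 87.0 CPM in normal livers (-2.26 ± 0.54, adjusted p = 0.475). Lbr, the nuclear envelope protein with the same reductase activity, had overlapping groups and a log2 fold change of -0.68 ± 0.54 (unadjusted p above 0.05). Msmo1, the methylsterol monooxygenase, was at 17.3, 3.97 and 16.6 CPM in G.1, G.3 and G.4, against 107, 71.1 and 37.1 CPM in N.1, N.2 and N.3 (-2.50 ± 0.52, adjusted p = 0.438; -2.07 ± 0.43 without G.3). The groups of Cyp51, Tm7sf2 and Msmo1 did not overlap. Nsdhl and Hsd17b7 complete the demethylation, and their log2 fold changes were -0.77 ± 0.31 (-0.49 ± 0.25 without G.3, unadjusted p above 0.05, and missed also without N.1) and -1.77 ± 0.82 (unadjusted p above 0.05). Hsd17b7 had no read in G.3 and was at 4.41 and 6.03 CPM in G.1 and G.4, against 14.9, 12.8 and 8.72 CPM in normal livers.

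In the last steps, Dhcr7, which makes cholesterol from its immediate precursor, was at 45.4, 29.8 and 40.5 CPM in arm G, against 119, 85.6 and 90.5 CPM in normal livers (-1.35 ± 0.31, adjusted p = 0.473). The isomerase Ebp and the desaturase Sc5d were below every normal library in all arm G libraries at smaller differences of -0.66 ± 0.34 (unadjusted p above 0.05) and -0.97 ± 0.49 (unadjusted p above 0.05).

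**Figure D3:**
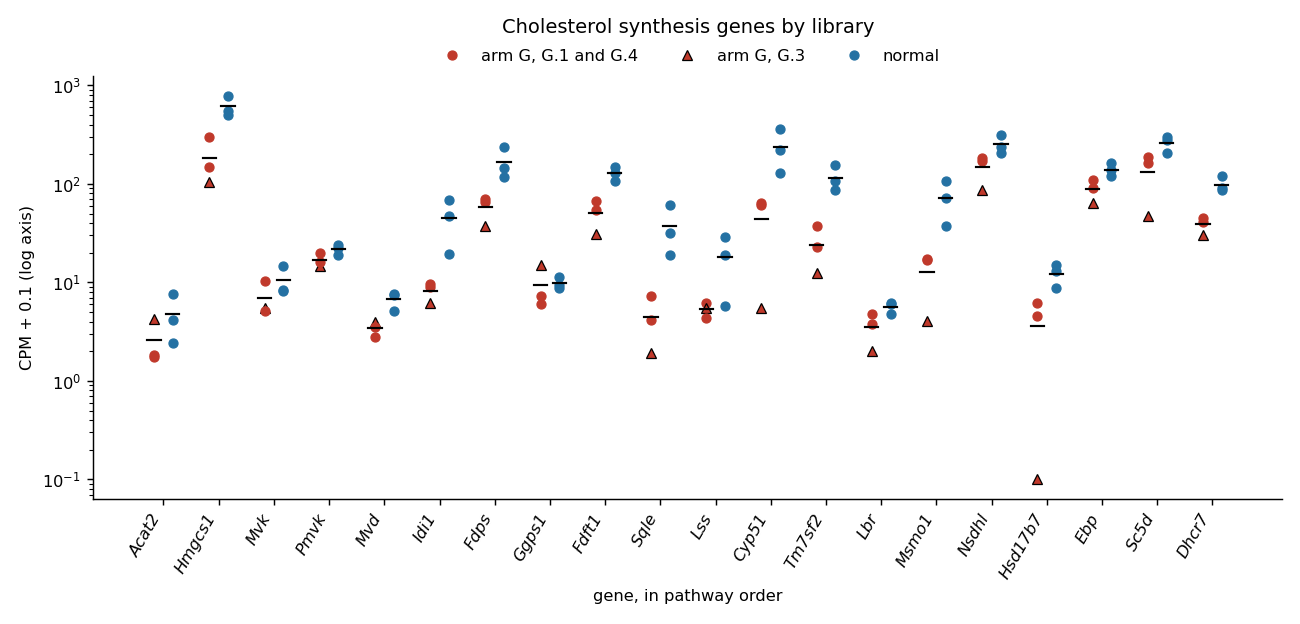
Levels (CPM + 0.1, log axis) of 20 of the cholesterol synthesis genes in pathway order, 1 point per library, arm G left of normal, with G.3 as a triangle. In 14 of these 20 genes every arm G point lies below every normal point.

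In mean level of the list, all 6 libraries of the other high-fat groups also lay below every normal library. The list's mean level was 4.29, 4.54 and 3.86 log2 CPM in D.1, D.4 and D.7, and 3.95, 3.73 and 4.19 log2 CPM in M.5, M.6 and M2.1. The comparisons with normal liver share the normal libraries. The median log2 fold change over normal was -1.40 in arm G, -1.45 in arm D and -1.68 in the model. In the direct test of arm G against the model, edgeR called 0 of 12355 genes (0%), with 148 higher (1.2%) and 139 lower (1.13%) at an unadjusted p of 0.05, and DESeq2 called 5. Of the cholesterol genes 1 of 22 was among those 148: Tm7sf2, at 37.0, 12.5 and 22.7 CPM in arm G, against 7.37, 5.49 and 11.4 CPM in the model (1.57 ± 0.54). The list's median in that test was 0.32, and without M.6 it was 0.15, with 2 genes higher (1.5% of all genes) and none lower at that threshold. Without G.3 it was 0.49, and 5 of the 22 were higher than in the model where 2.76% of all genes were: Tm7sf2 (1.88), Cyp51 (1.40), Msmo1 (0.93), Fdps (0.75) and Fdft1 (0.66). Without both G.3 and M.6 the median was 0.39 with 3 higher (2.18%), and without G.1 it was 0.05 with 1 higher. Against arm D, edgeR called 0 genes (0%), with 303 higher (2.45%) and 120 lower (0.971%) at an unadjusted p of 0.05, DESeq2 called 5, and the median of the cholesterol genes was 0.00, with a range of -0.21 to 0.21 without 1 library.

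Of 16 genes that control SREBP or take up sterol, 3 were lower at an unadjusted p of 0.05, the same 3 with non-overlapping groups, and none was higher. Srebf2, the gene of SREBP-2 itself, was at 37.0, 25.5 and 34.0 CPM in arm G, against 77.5, 58.8 and 43.6 CPM in normal livers (-0.90 ± 0.30; missed without N.1). Stard4, a carrier of cholesterol through the cytosol, was at 12.6, 7.49 and 9.01 CPM in G.1, G.3 and G.4, against 34.4, 36.4 and 20.1 CPM in N.1, N.2 and N.3 (-1.64 ± 0.35, adjusted p = 0.438; DESeq2 adjusted p = 0.00823). Insig1, the SREBP retention gene, overlapped with normal and was at 304, 58.6 and 40.9 CPM in arm G, against 343, 410.2 and 193 CPM in normal livers (-1.23 ± 0.65, unadjusted p above 0.05), so G.1 alone reached the normal range. Srebf1, whose SREBP-1c product drives fatty acid synthesis, pointed the other way, with 140.4, 149 and 98.0 CPM in arm G, against 102, 34.1 and 35.4 CPM in normal livers (1.17 ± 0.72, unadjusted p above 0.05).

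Fatty acid synthesis and desaturation genes were lower in 15 of 19 by sign (median -0.83), 5 of them at an unadjusted p of 0.05 and none higher. The list's mean level was 5.29, 4.47 and 5.12 log2 CPM in G.1, G.3 and G.4. It was 5.97, 5.81 and 5.06 log2 CPM in N.1, N.2 and N.3, so N.3 lay below G.1 and G.4. Acss2, which makes acetyl-CoA from acetate in the cytosol, was at 14.2, 9.41 and 14.3 CPM in arm G, against 42.5, 43.4 and 18.5 CPM in normal livers (-1.46 ± 0.34, adjusted p = 0.475; DESeq2 adjusted p = 0.0261). Fads1, the delta-5 desaturase of polyunsaturated fatty acids, was at 96.6, 17.7 and 91.8 CPM in arm G, against 320.2, 269 and 119 CPM in normal livers (-1.78 ± 0.63). Both had non-overlapping groups, and in both N.3 was the lowest normal library. Acly, which splits citrate to acetyl-CoA, met the lowest normal library at 32.7, 41.9 and 24.3 CPM in arm G, against 105, 79.8 and 32.7 CPM in normal livers (-1.14 ± 0.42). Fasn, fatty acid synthase, was at 20.0, 28.9 and 15.5 CPM in arm G, against 58.5, 53.4 and 23.5 CPM in normal livers (-1.08 ± 0.48). In Acly and Fasn the difference was larger without G.3, at -1.33 ± 0.48 and -1.34 ± 0.54. Without G.3, 4 of the 19 were lower at an unadjusted p of 0.05 and the median was -0.67. Without N.1 only 1 was lower (-0.64), and without N.2 the median was -0.54 with 4 lower. Fads1 missed that threshold without N.1, Acly without G.4 or N.1, and Fasn without G.1, G.4, N.1 or N.2. Against the model, 1 of the 19 was lower at that threshold (1.13% of all genes) and 0 higher, with a median of -0.20. Without M.6, 4 were lower (1.43%) and 0 higher, with a median of -0.31. Without both G.3 and M.6, 4 were lower (2.5%) and 0 higher, with a median of -0.14.

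Scd, the delta-9 desaturase that makes oleate and is a common marker of lipogenic liver, differed more between arm G and the model than between arm G and normal. It was at 149.8, 92.1 and 194 CPM in arm G, against 77.0, 125 and 88.6 CPM in normal livers (0.59 ± 0.77, unadjusted p above 0.05). In the model it was at 1014, 54.0 and 1645 CPM in M.5, M.6 and M2.1, and arm G was lower by a log2 fold change of -2.64 ± 0.82, although M.6 lay below all arm G libraries. Without G.3 that log2 fold change was -2.38. Arm D was at 430.0, 252 and 520.0 CPM. Lox, the lysyl oxidase that cross-links collagen, also differed more from the model, where M.6 lay just above the highest arm G library. It was at 6.13, 10.9 and 20.2 CPM in arm G, against 130.4, 21.0 and 84.4 CPM in the model (-2.66 ± 0.66) and 13.3, 7.27 and 13.5 CPM in normal livers (0.13 ± 0.63, unadjusted p above 0.05). The cyclin gene Ccnd1 was at 38.4, 34.5 and 33.7 CPM in arm G, against 77.4, 58.7 and 83.5 CPM in the model (-1.04 ± 0.28), and its level overlapped that of normal livers at 42.3, 19.3 and 29.2 CPM. Without M.6 the log2 fold changes of arm G over the model were -3.19 for Scd, -3.11 for Lox and -1.18 for Ccnd1. All edgeR adjusted p-values against the model with all libraries were above 0.99.

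Fatty acid oxidation and its PPAR-alpha targets were lower by sign in 29 of 35 genes (median -0.35), with 3 lower and 1 higher at an unadjusted p of 0.05. Cpt2, the inner-membrane carnitine palmitoyltransferase, was at 104, 78.7 and 142 CPM in arm G, against 182, 191 and 179.9 CPM in normal livers (-0.76 ± 0.28). Vnn1, a pantetheinase and PPAR-alpha target, was at 37.2, 7.71 and 43.6 CPM in arm G, against 46.7, 75.3 and 101 CPM in normal livers (-1.33 ± 0.54). Ucp2, a mitochondrial carrier, was the 1 that was higher, at 41.5, 58.2 and 54.3 CPM in arm G, against 29.1, 27.6 and 29.8 CPM in normal livers (0.83 ± 0.33). None of the 35 met that threshold without G.3, and the median was then -0.15 (Vnn1 -0.88 ± 0.42). Without G.4 10 were lower (2.27% of all genes) and none higher, with a median of -0.56. Ucp2 also missed it without G.4 or any 1 normal library, and Vnn1 without N.2 or N.3. Cpt1a, the rate-limiting entry step, had overlapping groups at 243, 176 and 524 CPM in arm G, against 779, 761 and 353 CPM in normal livers (-1.01 ± 0.49, unadjusted p above 0.05). Triglyceride and lipid droplet genes had a median of -0.16 over 20 tested genes, with 1 at an unadjusted p of 0.05. That gene, Fitm2, which partitions fat into droplets, was at 21.7, 10.1 and 42.2 CPM in arm G, against 43.2, 58.1 and 49.4 CPM in normal livers (-1.02 ± 0.39; -0.64 ± 0.28 without G.3, -1.67 ± 0.34 without G.4, and missed without G.1 or N.2).

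Sterol disposal differed in opposite directions. Cyp7a1, whose enzyme limits the rate of bile acid synthesis, was at 88.1, 109.6 and 100.5 CPM in arm G, against 42.8, 25.5 and 25.3 CPM in normal livers. The groups did not overlap, and the log2 fold change was 1.67 ± 0.46 (1.61 ± 0.50 without G.3). Cyp7b1, the oxysterol hydroxylase of the alternative bile acid route, was at 9.90, 18.6 and 7.55 CPM in arm G, against 2.11, 4.21 and 4.47 CPM in normal livers (1.73 ± 0.47). Abcg5 and Abcg8 together form the canalicular sterol exporter, and both were lower. Abcg8 was at 1.34, 2.38 and 0.901 CPM in arm G, against 5.19, 7.15 and 7.08 CPM in normal livers (-2.09 ± 0.47, adjusted p = 0.473; DESeq2 adjusted p = 0.00686; -2.51 ± 0.49 without G.3). Abcg5 was at 11.9, 9.98 and 7.14 CPM in arm G, against 18.1, 20.0 and 28.6 CPM in normal livers (-1.20 ± 0.35). Neither overlapped with normal.

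Also lower were Abcb11, the canalicular bile salt pump, with 544, 219.7 and 360.2 CPM in arm G, against 691, 755 and 555 CPM in normal livers (-0.83 ± 0.35; -0.55 ± 0.31 without G.3, unadjusted p above 0.05, and missed also without G.4, N.1 or N.2), and Amacr, the peroxisomal racemase of bile acid side-chain cutting, with 351, 412 and 365 CPM in arm G, against 674, 549 and 798 CPM in normal livers (-0.84 ± 0.27). Over the 25 bile acid and sterol excretion genes tested, 2 were higher and 4 lower at an unadjusted p of 0.05, the median was -0.28, and it was 0.03 without G.3 and -0.05 without N.1. In arm D, Cyp7a1 was at 165, 166 and 63.6 CPM and Abcg8 at 1.21, 1.43 and 1.21 CPM. In the model, Cyp7a1 was at 81.5, 71.4 and 204 CPM and Abcg8 at 2.75, 3.69 and 1.25 CPM. With all libraries the difference of arm G from the model missed an unadjusted p of 0.05 in both genes (Cyp7a1 -0.26 ± 0.44, Abcg8 -0.74 ± 0.47). Without G.3, Abcg8 met that threshold against the model (-1.16). It missed it without M.6 (-0.39 ± 0.50) and without both G.3 and M.6 (-0.80 ± 0.46). Cyp7a1 missed it in each of these settings.

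Genes of lipoprotein supply and insulin response gave single differences. Angptl8, a secreted inhibitor of lipoprotein lipase, was at 53.7, 69.3 and 51.9 CPM in arm G, against 32.0, 11.5 and 28.3 CPM in normal livers (1.28 ± 0.41). Insr, the insulin receptor, was at 37.5, 19.6 and 30.2 CPM in arm G, against 71.2, 68.4 and 46.5 CPM in normal livers (-1.09 ± 0.38; -0.86 ± 0.40 without G.3, unadjusted p above 0.05). Pc, pyruvate carboxylase, was at 424, 272 and 404 CPM in arm G, against 612, 557 and 553 CPM in normal livers (-0.65 ± 0.27; missed without G.3 or any 1 normal library). All 3 had non-overlapping groups. Ppargc1a, a coactivator of fasting metabolism, was at 0.575, 0.907 and 0.901 CPM in arm G, against 4.61, 3.61 and 0.820 CPM in normal livers, where N.3 lay inside the arm G range (-1.93 ± 0.64; missed without N.1).

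The growth hormone list had the third lowest median. Of its 16 tested genes 15 had a negative log2 fold change (median -0.57), 5 were lower at an unadjusted p of 0.05 and 7 did not overlap. Cish, the STAT5-induced inhibitor whose promoter is shown above, was at 2.24, 4.54 and 3.95 CPM in G.1, G.3 and G.4, against 57.0, 73.5 and 39.9 CPM in N.1, N.2 and N.3. The lowest normal library was several times the highest arm G library, and the log2 fold change was -4.0 ± 0.78 (adjusted p = 0.344; DESeq2 adjusted p = 3.1e-05; -4.19 ± 0.95 without G.3). Socs2, the second feedback inhibitor, was at 10.3, 16.0 and 53.0 CPM in arm G, against 89.1, 137 and 153 CPM in normal livers (-2.25 ± 0.73). Igf1, the main hepatic effector of growth hormone, was at 257, 161 and 315 CPM in arm G, against 396, 325 and 382 CPM in normal livers, without overlap but at a smaller difference (-0.59 ± 0.32, unadjusted p above 0.05). Ghr, the receptor, had a log2 fold change of -0.68 ± 0.43 (unadjusted p above 0.05), and -0.28 ± 0.32 without G.3. Stat5b had overlapping groups (-0.49 ± 0.50, unadjusted p above 0.05). Without G.3 the list had a median of -0.32, and 4 genes were lower at an unadjusted p of 0.05.

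Sex-biased targets of the hormone were not uniform. Cyp2c12, the female-predominant cytochrome P450 of rat liver, was at 11.9, 7.83 and 17.1 CPM in arm G, against 76.7, 27.5 and 34.5 CPM in normal livers (-1.91 ± 0.42, adjusted p = 0.471; DESeq2 adjusted p = 0.00894). Reads of this gene can be shared with close members of its family. Cyp2c11, the male-predominant form, was far more abundant in counts at 1254, 388 and 1156 CPM in arm G, against 1158, 743 and 1271 CPM in normal livers, and overlapped (-0.18 ± 0.47, unadjusted p above 0.05; 0.20 ± 0.39 without G.3, where the sign turns). Hsd17b2, which inactivates oestradiol and testosterone, was at 57.0, 51.4 and 45.4 CPM in arm G, against 115, 114 and 97.8 CPM in normal livers (-1.09 ± 0.28, adjusted p = 0.621). The prolactin receptor Prlr was at 1.41, 3.18 and 13.6 CPM in arm G, against 11.5, 47.2 and 15.3 CPM in normal livers, with G.4 inside the normal range (-2.02 ± 0.85). Prlr missed an unadjusted p of 0.05 without G.1, G.3 or N.2 (-1.14 ± 0.90 without N.2), and its log2 fold change was -3.48 ± 0.92 without G.4.

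Transcription factors of the hepatocyte also differed. Onecut1 (HNF6), a factor that growth hormone induces in rat liver, was at 1.47, 2.38 and 2.49 CPM in arm G, against 48.0, 56.1 and 4.85 CPM in normal livers (-4.11 ± 0.80, adjusted p = 0.344; DESeq2 adjusted p = 3.1e-05). N.3 lay close to arm G here, and without N.3 Onecut1 was the only gene that edgeR called (log2 fold change -4.63, adjusted p = 0.0359). Hhex, a homeobox factor of liver and endothelium, was at 93.2, 52.2 and 64.2 CPM in arm G, against 214, 240.5 and 167 CPM in normal livers (-1.57 ± 0.38, adjusted p = 0.475). Cebpa, a factor that maintains hepatocyte gene expression, was at 175, 103 and 243 CPM in arm G, against 422, 300 and 272 CPM in normal livers (-0.93 ± 0.36; -0.65 ± 0.33 without G.3, unadjusted p above 0.05, and missed also without G.1 or N.1). All 3 had non-overlapping groups.

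Bcl6, the repressor at STAT5 sites, was 1 of 18 genes in which every arm G library was above all 9 other libraries. It was at 70.8, 71.9 and 26.5 CPM in G.1, G.3 and G.4, against 10.2, 14.4 and 13.1 CPM in N.1, N.2 and N.3, a log2 fold change of 2.17 ± 0.39 (adjusted p = 0.340; DESeq2 adjusted p = 0.000264; 1.97 ± 0.41 without G.3). The model was at 13.6, 22.1 and 11.2 CPM and arm D at 7.59, 8.95 and 5.93 CPM, so every arm G library was above all 9 others. Arm G exceeded the model by 1.85 ± 0.39 (DESeq2 adjusted p = 0.0295; 2.18 ± 0.42 without M.6) and arm D by 2.91 ± 0.40 (DESeq2 adjusted p = 2.89e-08). The edgeR adjusted p against arm D was 0.114, and without G.4, the lowest arm G library, Bcl6 was the only gene edgeR called in that comparison (log2 fold change 3.23, adjusted p = 0.00765).

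Of the 16 tested genes of the growth hormone list, 1 was higher and 1 lower than in arm D at an unadjusted p of 0.05. The shares of all genes were 2.45% and 0.971%. Prlr and Hsd17b2 differed between the didymin arms in opposite directions, and few reads of Prlr were counted in arm D. Prlr was at 1.41, 3.18 and 13.6 CPM in arm G, against 0.0710, 0.115 and 0.968 CPM in arm D (3.93 ± 1.01; DESeq2 adjusted p = 0.0380). Hsd17b2 was at 57.0, 51.4 and 45.4 CPM in arm G, against 134, 172 and 115 CPM in arm D (-1.45 ± 0.29; DESeq2 adjusted p = 0.00481). Neither pair of groups overlapped. Cish was at 8.37, 4.36 and 10.1 CPM in arm D and at 22.6, 6.57 and 1.41 CPM in M.5, M.6 and M2.1. Arm G differed from these by -1.10 ± 0.72 (unadjusted p above 0.05) and -1.52 ± 0.72 (unadjusted p above 0.05). Without M.6, Cish differed from the model by -1.75 ± 0.79 and met an unadjusted edgeR p of 0.05. It missed it without both G.3 and M.6 (-1.93 ± 0.95). Against the model, 1 of the 16 list genes was higher at that threshold (1.2% of all genes) and 0 lower (1.13%). The median was -0.32. Without M.6, 1 was higher (1.5%) and 3 lower (1.43%), with a median of -0.60. Without both G.3 and M.6, 1 was higher (2.18%) and 1 lower (2.5%), with a median of -0.32. Socs2 was at 32.6, 25.1 and 50.8 CPM in arm D and at 146, 72.7 and 15.1 CPM in the model, so the model libraries spread over the whole range between arm G and normal.

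**Figure D4:**
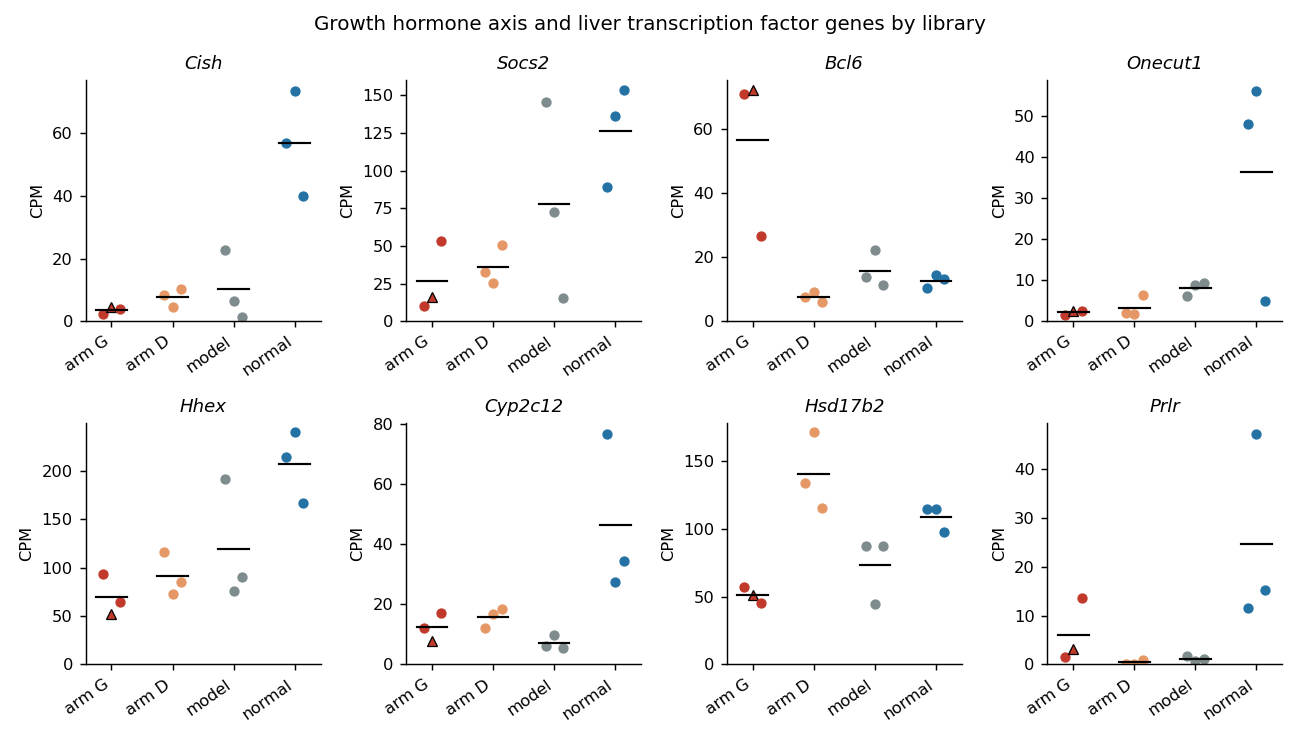
Levels (CPM) of growth hormone axis genes and liver transcription factors in each library, with groups in the order arm G, arm D, model and normal; bars are group means and G.3 is a triangle. Cish is at 2.24 to 4.54 CPM in arm G and at 39.9 to 73.5 CPM in normal livers, and Bcl6 is higher in every arm G library than in any other.

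In 18 genes (0.146% of those tested) every arm G library was above all 9 other libraries, and in 24 (0.194%) every one was below. Of these, Bcl6 alone was higher, and Birc2 and Nup98 alone were lower, at an unadjusted p of 0.05 against each of the 3 other groups. Birc2, an inhibitor of apoptosis that acts as a ubiquitin ligase on the way to NF-kB, was at 22.5, 19.4 and 24.8 CPM in arm G. It was at 29.7, 27.4 and 38.1 CPM in arm D, at 33.8, 39.0 and 29.0 CPM in the model and at 43.0, 44.4 and 47.9 CPM in normal livers. The log2 fold change of arm G over normal was -1.02 ± 0.22 (adjusted p = 0.438; DESeq2 adjusted p = 0.00279), over the model -0.61 ± 0.22 and over arm D -0.51 ± 0.22. Nup98, a nuclear pore protein, was at 51.3, 47.1 and 54.7 CPM in arm G, against 64.4, 70.7 and 83.0 CPM in arm D, 63.0, 77.0 and 75.3 CPM in the model and 71.9, 73.4 and 64.9 CPM in normal livers (over normal -0.46 ± 0.20). Nup98 missed the threshold against normal without any 1 arm G library other than G.4 or any 1 normal library. Without G.3 Nup98 no longer met that threshold against normal or the model, nor Birc2 against arm D, while Bcl6 met it against all 3. Without M.6 neither Birc2 (-0.50 ± 0.24) nor Nup98 (-0.44 ± 0.23) met it against the model.

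Immediate early genes respond within minutes to many stimuli, tissue handling included. As a list they stood higher in G.1 and G.3, while G.4 lay below every normal library. In mean level the list was at 5.66, 5.26 and 4.08 log2 CPM in G.1, G.3 and G.4. Normal livers were at 4.32, 4.67 and 4.49 log2 CPM, and M.5, M.6 and M2.1 at 4.15, 4.39 and 4.06 log2 CPM. Of 26 tested, 21 had a positive log2 fold change (median 0.83), 9 were higher at an unadjusted p of 0.05 where 4.42% of all genes were, and 1 was lower. Without G.1 only 2 were higher, where 8.36% of all genes were, 3 were lower, and the median was 0.43. Junb, a subunit of the AP-1 factor, was at 323, 245 and 162 CPM in G.1, G.3 and G.4, against 107, 75.7 and 85.0 CPM in N.1, N.2 and N.3 (1.44 ± 0.35, adjusted p = 0.475; DESeq2 adjusted p = 0.0261; 1.45 ± 0.37 without G.3). Egr1, a zinc finger factor, was at 412, 246 and 147 CPM in arm G, against 129, 61.2 and 126 CPM in normal livers (1.35 ± 0.44; 0.89 ± 0.44 without G.1, unadjusted p above 0.05). Both had non-overlapping groups, with G.1 highest and G.4 lowest. Ier3, a stress-response regulator of survival, was at 58.0, 40.9 and 38.5 CPM in arm G, against 17.5, 27.3 and 28.1 CPM in normal livers (0.91 ± 0.30; missed without G.1). Btg2, an antiproliferative factor, was at 483, 147 and 151 CPM in arm G, against 104, 117 and 108 CPM in normal livers (1.25 ± 0.46), so that most of its difference lay in G.1 (0.44 ± 0.35 without it, unadjusted p above 0.05; missed also without N.1). Jund and Ier5 were higher without overlap, at 0.86 ± 0.34 and 0.80 ± 0.32. Jund was at 0.45 ± 0.32 on the log2 scale without G.1 and missed an unadjusted p of 0.05 there and without N.2, and Ier5 missed it without G.1, G.3 or N.1.

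The best-known members overlapped with normal. Fos was at 80.7, 50.2 and 21.4 CPM in arm G, against 24.5, 17.4 and 22.4 CPM in normal livers (1.24 ± 0.62, unadjusted p above 0.05). Jun was at 1119, 434 and 195 CPM in arm G, against 238, 260.2 and 195 CPM in normal livers (1.34 ± 0.58; 0.43 ± 0.50 without G.1, unadjusted p above 0.05, and missed also without any 1 normal library). Atf3, a stress-induced repressor, ranged widely at 62.7, 215 and 4.37 CPM in arm G, against 5.44, 11.8 and 9.40 CPM in normal livers (3.401 ± 1.17; 1.93 ± 1.08 without G.3, unadjusted p above 0.05). In Fos and Jun the library G.4 lay at or inside the normal range, and in Atf3 below it. The 1 lower gene, Gadd45a, a DNA damage response gene, was at 23.9, 15.4 and 17.4 CPM in arm G, against 29.8, 34.7 and 28.6 CPM in normal livers (-0.71 ± 0.26; missed without N.2). Without G.3, 6 genes were higher (1.73% of all genes) and 2 lower, with a median of 0.70.

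Against the model, 11 of the 26 immediate early genes were higher at an unadjusted p of 0.05 where 1.2% of all genes were, none was lower, and the median was 0.78. Without M.6 there were again 11 higher (1.5% of all genes) and none lower, with a median of 1.04, and without both G.3 and M.6 there were 8 higher (2.18%). Without G.1 there were 5 higher (1.72% of all genes), with a median of 0.58. Junb was at 323, 245 and 162 CPM in arm G, against 55.9, 108 and 56.3 CPM in the model (1.73 ± 0.35; DESeq2 adjusted p = 0.0192), and Btg2 was higher by 1.84 ± 0.47. Fos was at 4.62, 15.6 and 19.5 CPM in the model, each below the lowest arm G library (1.94 ± 0.63). Nr4a1, an orphan nuclear receptor, was at 101, 136 and 7.41 CPM in arm G, against 19.2, 13.04 and 8.13 CPM in the model (2.602 ± 0.84), with G.4 below all model libraries. Against arm D none of the 26 met that threshold in either direction: there Junb was at 229, 140.2 and 174 CPM and Fos at 105, 23.8 and 39.5 CPM. The sources used here do not give the order and time of tissue collection, and their part in these levels was not tested. The cyclic AMP response element TGACGTCA lay in 4 of 17 immediate early promoters (23.5%), against 1.83% of all promoters and 0 of 15 clock promoters. The E-box CACGTG lay in 3 of 15 clock promoters (20%) and in 4 of the 17, against 6.42% of all.

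Clock genes were mixed, with a median of -0.09 over 18 genes. Dbp, a clock output factor that peaks late in the light phase in rodents, was at 4.09, 10.8 and 7.76 CPM in arm G, against 2.82, 2.22 and 3.13 CPM in normal livers (1.46 ± 0.40). Nfil3, a repressor that competes with it, was at 115, 181 and 89.5 CPM in arm G, against 51.2, 74.7 and 57.9 CPM in normal livers (1.07 ± 0.41; 0.75 ± 0.41 without G.3, unadjusted p above 0.05, and missed also without N.1 or N.3). Neither overlapped with normal. The period gene Per2 was at 7.98, 26.9 and 2.49 CPM in arm G, against 2.56, 2.04 and 1.94 CPM in normal livers (2.495 ± 0.75; 1.27 ± 0.62 without G.3, unadjusted p above 0.05), and G.4 lay in the normal range. Bhlhe40, a repressor of the clock, was at 14.1, 3.18 and 7.14 CPM in arm G, against 48.7, 24.8 and 8.35 CPM in normal livers (-1.73 ± 0.71; -1.02 ± 0.71 without N.1, and missed without N.1, G.3 or G.4). Nr1d1, the nuclear receptor REV-ERB alpha, overlapped (0.39 ± 0.52, unadjusted p above 0.05). Without G.3, Dbp alone of the 18 met an unadjusted p of 0.05.

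Immunoglobulin and lymphocyte genes were higher in arm G. Among 11 tested B and plasma cell markers 5 were higher and 1 lower at an unadjusted p of 0.05 (median 1.49). Without G.3 the median was 0.66, with 3 of 11 higher and 1 lower, and without N.2 2 of 12 were higher and 1 lower. Ighm, the IgM heavy chain, was at 229.9, 230.5 and 226 CPM in G.1, G.3 and G.4, against 68.0, 26.4 and 38.4 CPM in N.1, N.2 and N.3 (2.37 ± 0.57, adjusted p = 0.475; DESeq2 adjusted p = 0.0109), with almost no spread among the arm G libraries. Igh-6, a second entry for the same kind of heavy chain, was at 46.7, 77.2 and 83.8 CPM in arm G, against 10.7, 4.33 and 6.71 CPM in normal livers (3.26 ± 0.70, adjusted p = 0.438; DESeq2 adjusted p = 0.000736). Reads may be split between these 2 entries. Jchain, which joins IgM and IgA, was at 29.9, 6.58 and 33.3 CPM in arm G, against 12.5, 3.43 and 3.36 CPM in normal livers, and G.3 lay inside the normal range (1.86 ± 0.65; 2.31 ± 0.57 without G.3; missed without G.4, N.2 or N.3). Mzb1, a chaperone of plasma cells, was near 2 CPM in all arm G libraries (2.17, 2.16 and 2.01 CPM), against 0.768, 0.300 and 0.522 CPM in normal livers (1.98 ± 0.73; missed without N.2). The lower gene was Xbp1, a secretory factor that hepatocytes also express, at 137, 61.7 and 169 CPM in arm G, against 341, 309.9 and 240.0 CPM in normal livers (-1.28 ± 0.38). The summed level of 14 B and plasma cell markers did not separate the groups, at 408, 338 and 442 CPM in arm G, against 430, 343 and 292 CPM in normal livers. Ighm in the other high-fat groups was at 239, 229 and 169 CPM in arm D and at 256, 193 and 35.5 CPM in the model.

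T and NK cell markers were higher in 16 of 17 by sign (median 1.096), 7 of them at an unadjusted p of 0.05, and 6 did not overlap. Against arm D none of the 17 met that threshold, and against the model 2 were higher, where 1.2% of all genes were. Cd3e, a chain of the T cell receptor complex, was at 0.894, 2.04 and 2.29 CPM in arm G, against 0.640, 0.300 and 0.746 CPM in normal livers (1.62 ± 0.67; missed without G.3, G.4, N.1 or N.2). Cd3g, another chain of that complex, was at 0.830, 8.05 and 1.87 CPM in arm G, against 0.512, 0.120 and 0.671 CPM in normal livers (3.02 ± 0.95; 1.64 ± 0.85 without G.3, unadjusted p above 0.05), with G.3 far above the rest. Lck, the kinase next to the receptor, was at 4.34, 9.30 and 8.66 CPM in arm G, against 4.03, 3.005 and 3.36 CPM in normal livers (1.096 ± 0.37). The summed level of 19 T and NK markers was 59.4, 101 and 90.4 CPM in arm G, against 50.7, 52.7 and 62.9 CPM in normal livers, so G.1 lay within the normal range. Without G.3, 1 of 18 tested markers met the threshold and the median was 0.86, and without N.1 2 of 18 did. Limd2 is named for its small p in the whole table. Limd2, a LIM domain protein, was at 13.5, 15.8 and 14.1 CPM in arm G, against 6.40, 4.75 and 7.46 CPM in normal livers (1.22 ± 0.27, adjusted p = 0.473; DESeq2 adjusted p = 0.0114).

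Chemokine, adhesion and cytokine feedback genes were higher by sign in 23 of 25 (median 0.77), with 3 at an unadjusted p of 0.05 and 6 without overlap. Without G.3 the median was 0.41 with 2 of 27 higher, and without N.1 or N.2 1 gene was higher. Cxcl1, which attracts neutrophils, was at 9.26, 6.13 and 15.3 CPM in arm G, against 3.71, 1.14 and 0.969 CPM in normal livers (2.39 ± 0.62, adjusted p = 0.616; DESeq2 adjusted p = 0.0315; 2.67 ± 0.64 without G.3). It was at 3.16, 2.43 and 0.922 CPM in the model, each below the lowest arm G library (2.25 ± 0.62). Il1b, the cytokine interleukin 1 beta, was at 14.5, 34.8 and 11.8 CPM in arm G, against 9.41, 8.59 and 8.80 CPM in normal livers (1.18 ± 0.44), and without G.3 it was 0.57 ± 0.37 (unadjusted p above 0.05; missed also without N.2). Il1r1, its receptor, was at 31.5, 6.81 and 21.8 CPM in arm G, against 102, 90.5 and 18.0 CPM in normal livers (-1.80 ± 0.73; missed without G.3, G.4, N.1 or N.2). Over 28 toll-like receptor, NF-kB and inflammasome genes, 4 were higher and 1 lower at that threshold, the median was 0.06, and none met it without G.3.

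Neutrophil markers were higher by sign in 8 of 8 tested (median 1.62), 1 of them at an unadjusted p of 0.05. S100a9, a calcium-binding protein of neutrophils, was at 4.22, 22.2 and 9.49 CPM in arm G, against 2.56, 3.85 and 3.28 CPM in normal livers (1.88 ± 0.85; 1.09 ± 0.86 without G.3, unadjusted p above 0.05). The 1 gene was no longer higher without G.3, G.4 or any 1 normal library, and the median without G.3 was 1.096. The summed level of 12 neutrophil markers was 26.3, 66.9 and 43.6 CPM in arm G, against 18.6, 22.0 and 16.5 CPM in normal livers. Red-cell transcripts were higher beside them. Hbb, a beta-globin gene, was at 176, 451 and 252 CPM in arm G, against 142, 55.1 and 114 CPM in normal livers (1.497 ± 0.50; 1.05 ± 0.50 without G.3, unadjusted p above 0.05), and the sum over 8 blood markers was 531, 1527 and 623 CPM in arm G, against 352, 141 and 441 CPM in normal livers. Blood and neutrophil markers were thus highest in G.3, the library with the high mitochondrial share. The part of blood left in the tissue in the neutrophil and lymphocyte values was not tested.

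Interferon response genes were higher by sign in 28 of 36 (median 0.43), with 5 at an unadjusted p of 0.05 and 10 without overlap. Irf1, an interferon-induced transcription factor, was at 27.7, 36.8 and 33.8 CPM in arm G, against 13.4, 17.9 and 14.5 CPM in normal livers (1.098 ± 0.41; 1.02 ± 0.45 without G.3; missed without N.1 or N.3). Ifi44, an interferon-induced gene, was at 14.3, 63.3 and 13.3 CPM in arm G, against 8.52, 9.73 and 12.2 CPM in normal livers (1.57 ± 0.56), and without G.3 its log2 fold change was 0.45 ± 0.37 (unadjusted p above 0.05). Irf1 alone of the 36 met the threshold without G.3. Class II antigen presentation genes had a median of 0.57 over 8 tested, with 1 at an unadjusted p of 0.05: Ciita, the class II transactivator, at 5.43, 19.5 and 7.97 CPM in arm G, against 4.802, 4.51 and 4.62 CPM in normal livers (1.23 ± 0.51; 0.54 ± 0.45 without G.3; missed there and without any 1 normal library). Against arm D all 8 class II genes were lower by sign in arm G, with a median of -1.09 and 4 at an unadjusted p of 0.05, where 0.971% of all genes were. Without 1 library the median stayed between -1.41 and -0.87 and 1 to 7 were lower, with 1 lower without D.4. Kupffer cell and macrophage markers had a median of 0.03 against normal over 18 genes, with 2 higher, and of -0.69 against arm D, where all 18 were lower by sign and 3 at that threshold. Without D.4 that median was -0.28, with none at the threshold. Their summed level was 1072, 646 and 1113 CPM in arm G, against 828, 2293 and 1594 CPM in arm D and 966, 1019.5 and 805 CPM in normal livers.

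**Figure D5:**
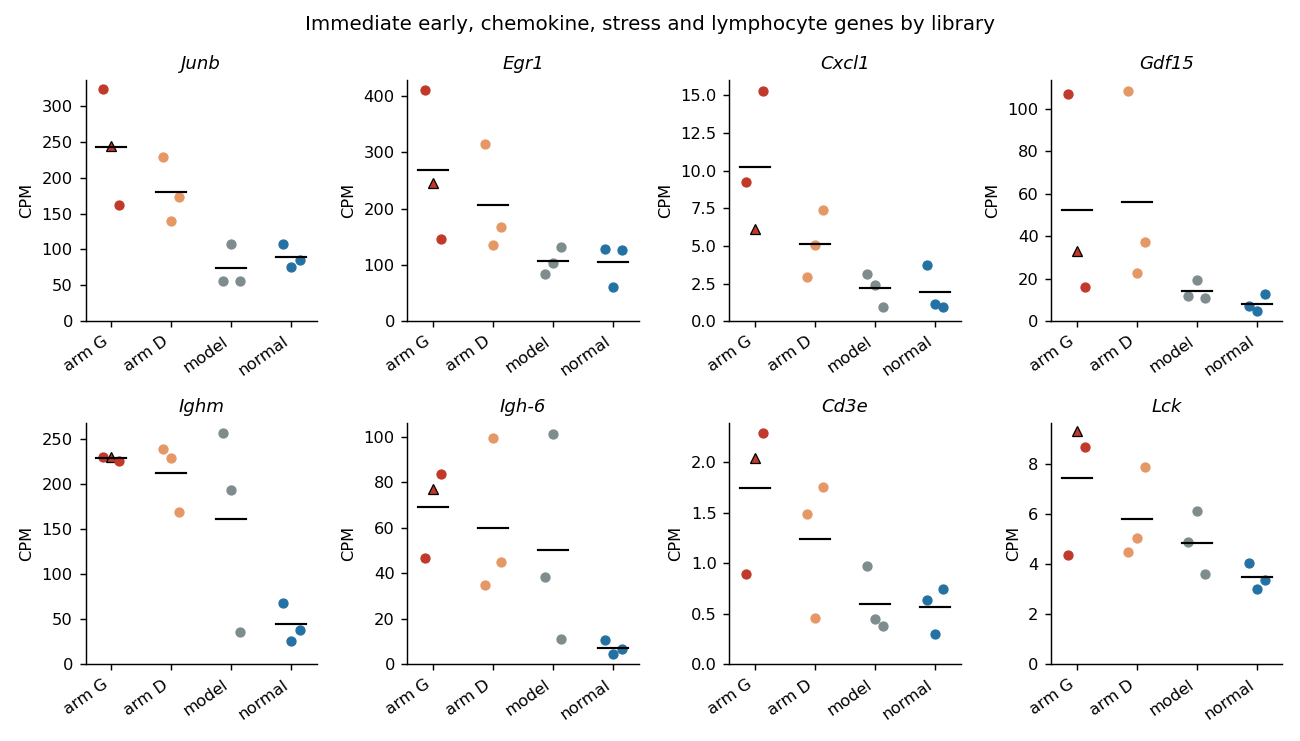
Levels (CPM) of immediate early, chemokine, stress and lymphocyte genes in each library, with groups in the order arm G, arm D, model and normal; bars are group means and G.3 is a triangle. Junb, Cxcl1, Ighm and Igh-6 are higher in every arm G library than in any normal one.

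Genes of proteins that hepatocytes secrete depended on G.3. Of 34 complement and coagulation genes 32 had a negative log2 fold change with all libraries (median -0.26), and 14 had one without G.3 (median 0.07). Acute phase genes had 17 negative of 22 with all libraries (median -0.23) and 10 without G.3 (median 0.06). The 20 hepatocyte markers had 17 negative with all libraries (median -0.29) and 8 without G.3 (median 0.04). None of the complement, coagulation or acute phase genes met an unadjusted p of 0.05 in either setting. Pericentral hepatocyte markers gained without G.3: 2 of 14 tested were higher at that threshold with all libraries (4.42% of all genes) and 5 without it (1.73%). The medians were 0.31 and 0.39. Without G.1, 1 was higher where 8.36% of all genes were, with a median of 0.14. Cyp2e1, the ethanol-inducible cytochrome P450 of pericentral hepatocytes, was at 5717, 2409.9 and 4152 CPM in arm G, against 2129.7, 2239.6 and 2760.0 CPM in normal livers (0.78 ± 0.39, unadjusted p above 0.05; 1.06 ± 0.33 without G.3). Tbx3, a factor of the same zone, was at 17.1, 4.99 and 11.99 CPM in arm G, against 5.57, 4.27 and 2.46 CPM in normal livers (1.47 ± 0.56; 1.83 ± 0.54 without G.3; missed without G.1 or N.3).

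Extracellular matrix genes were lower by sign in 20 of 28 (median -0.33), with 4 at an unadjusted p of 0.05 and none higher, and without G.3 6 were lower (median -0.52). Without N.3, 16 were lower by sign (median -0.16) and 2 at that threshold, where 3.1% of all genes were, and without both G.3 and N.3 1 was lower (2.22%). Mmp2, the gelatinase of stromal cells, was at 8.81, 7.60 and 8.80 CPM in arm G, against 13.1, 14.2 and 21.8 CPM in normal livers (-0.96 ± 0.28). Col3a1, a fibrillar collagen, was at 110.3, 164 and 109 CPM in arm G, against 178, 212 and 382 CPM in normal livers (-1.01 ± 0.35; -1.23 ± 0.38 without G.3; -0.62 ± 0.34 without N.3, unadjusted p above 0.05). Col4a1 of the basement membrane and the matrix glycoprotein Sparc were lower, at -0.70 ± 0.31 and -0.61 ± 0.26, and each missed an unadjusted p of 0.05 without G.1, G.3, N.2 or N.3 (Col4a1 also without N.1). The groups overlapped in none of these 4 genes, and N.3 was the highest normal library in each. The summed level of 15 stellate cell and fibroblast markers was 537, 460 and 764 CPM in arm G, against 643, 683 and 795 CPM in normal livers.

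Stress and detoxification genes gave a few differences. Gdf15, a secreted stress hormone of the TGF-beta family, was at 107, 33.2 and 16.3 CPM in arm G, against 6.92, 4.81 and 12.9 CPM in normal livers (2.67 ± 0.73; DESeq2 adjusted p = 0.0284; 1.58 ± 0.62 without G.1), and the highest value was that of G.1. Arm D was at 108, 22.8 and 37.0 CPM and the model at 11.8, 19.4 and 10.7 CPM. Nfe2l2, the gene of NRF2, the main factor of the antioxidant response, was at 143, 149 and 114 CPM in arm G, against 77.2, 57.9 and 77.9 CPM in normal livers (0.93 ± 0.27; 0.86 ± 0.28 without G.3). Its 26 tested targets and antioxidant enzymes had a median of 0.19, with 1 higher and 1 lower at an unadjusted p of 0.05. Of 28 conjugation enzymes 3 were higher and none lower, among them the glutathione S-transferases Gstm3 (1.95 ± 0.59) and Gsta3 (1.26 ± 0.44; 0.77 ± 0.44 without G.1, unadjusted p above 0.05). Gstm3 was at 14.6, 15.7 and 8.04 CPM in arm G, against 3.01, 2.40 and 4.47 CPM in normal livers, and reads of this family may be split between close copies.

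Among the 12 genes of smallest p in each direction, those described next lay outside these groups and were higher in arm G. Tmem150c, a membrane protein, was at 21.7, 31.2 and 23.9 CPM in arm G, against 10.1, 9.49 and 7.01 CPM in normal livers (1.52 ± 0.23, adjusted p = 0.253; DESeq2 adjusted p = 1.66e-06). It was at 24.5, 23.4 and 22.5 CPM in arm D and at 24.7, 23.7 and 25.2 CPM in the model. Tex13b was at 22.5, 18.0 and 11.99 CPM in arm G, against 2.18, 2.22 and 0.820 CPM in normal livers (3.31 ± 0.59, adjusted p = 0.340; DESeq2 adjusted p = 3.1e-05). Adam8, a metalloprotease of leukocytes, was at 2.68, 6.47 and 8.25 CPM in arm G, against 0.448, 0.721 and 0.447 CPM in normal livers (3.396 ± 0.62, adjusted p = 0.340; DESeq2 adjusted p = 0.000219). Tspo, the translocator protein of the outer mitochondrial membrane, was at 9.07, 11.003 and 13.3 CPM in arm G, against 2.95, 4.51 and 4.33 CPM in normal livers (1.501 ± 0.35, adjusted p = 0.473). Arm G differed from the model in these by 0.06 ± 0.22 for Tmem150c, -0.44 ± 0.53 for Tex13b, 0.05 ± 0.54 for Adam8 and 0.27 ± 0.34 for Tspo, each at an unadjusted p above 0.05. Without G.3 the log2 fold changes over normal were 1.37, 3.30, 3.32 and 1.52 in the same order. Tuba3b and Mok were also higher, by 2.28 ± 0.48 (adjusted p = 0.438) and 2.84 ± 0.64 (adjusted p = 0.473). The kinase Mok was at 2.43, 8.51 and 3.60 CPM in arm G, against 0.640, 0.601 and 0.746 CPM in normal livers.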

How the data were processed

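RNA of rat liver was measured in 12 libraries. The authors deposited whole-number counts of reads for each gene, per the file headers, in tables that each hold 2 groups. The submitters' processing notes name the mouse build mm9 and DESeq2, while gene names are those of the rat. The sources used here do not give the aligner, counter, annotation or use of strand. The arm G and normal counts were joined on gene identifier, with 0 for a gene a table does not list, which gave 16558 genes. The authors' fold changes were not used, and 36 other per-sample columns were left out. Symbols equalled a RefSeq symbol in 14408 cases and a synonym in 747.

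All 12 libraries were fitted as 4 group means in edgeR 4.0.16 (R 4.3.3) after filterByExpr (12355 genes) and TMM scaling, with 8 residual degrees of freedom, a prior of 4.32 and a common biological coefficient of variation of 0.409. Contrasts were tested with the quasi-likelihood F test and Benjamini-Hochberg adjustment at 0.05. The standard errors given were derived from that test, as the absolute log2 fold change over the square root of F. DESeq2 1.42.0 and limma-voom 3.58.1 were alternatives, and the fit was checked on simulated data. There, recovery of changed genes was required only at a coefficient of variation well below that of these data. A run at a coefficient close to that of these data was held only to a limit on false calls, and its recovery is not reported here. The power at the spread of these data is thus not given. The genes named are the 12 of smallest p in each direction (mean of at least 1 CPM in a group), the 3 of smallest p in each of 41 lists, and fixed genes of fatty liver; these are a choice from them, and genes outside them were chosen after their values were seen. A few of them are not reported here. The lists, members and groups were chosen with earlier results of these data known. No interval covers more than counting error and the spread between libraries, and groups of 3 limit the precision.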

Additional observations from a re-analysis of the deposited data

How the results depend on the processing

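The edgeR count of 0 genes called against normal stayed 0 with upper-quartile scaling, without mitochondrial genes, without a filter, in the fit of arm G and normal alone, with unweighted limma-voom and without G.3. DESeq2 called 51, limma-voom with quality weights 47, and leaving out 1 library gave 0 to 1. Against the model DESeq2 called 5, and leaving out 1 library gave 0. Against arm D DESeq2 called 5, and leaving out 1 library gave 0 to 1. The count at an unadjusted p of 0.05 was 814, and it was 1934 with quality weights, 522 with unweighted voom, 537 without both G.3 and N.3 (chosen after seeing the data) and 373 to 1409 without 1 library. It was 409 without G.3, 1409 without G.1, 1227 without G.4, 373 without N.1 and 381 without N.2. The difference in mitochondrial share was 18.4 percentage points, and 0.429 to 27.9 without 1 library, the lowest without G.3. Of the 130 genes examined, the log2 fold change of 5 turned sign, each with overlapping groups. Without 1 library, Ggps1 ranged from -0.55 to 0.14 (0.07 without G.1, 0.14 without G.4 and 0.04 without N.3) and Nr1d1 from -0.033 without G.1 to 0.70. Lox ranged from -0.45 without G.4 to 0.46 (-0.11 without N.2), Ccnd1 from -0.014 without N.2 to 0.55, and Cyp2c11 from -0.46 to 0.20 without G.3. Cyp2c11 was at 0.33 with quality weights, 0.20 without G.3 and M.6, and 0.36 without G.3 and N.3. The cause was not tested. No paired analysis was possible because the count columns do not carry the labels' replicate numbers, and the sources used here do not say what the numbers in the columns count.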
